A study of Bos taurus with 12 samples.

Results

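The cyclins, the cyclin-dependent kinases (CDKs) and the genes of DNA replication and mitosis are described here in the corpus luteum of Japanese-Black cows. The corpus luteum is the gland that makes progesterone after ovulation, and its RNA was read on 1-colour Agilent arrays. The genes were taken by symbol: CCN plus a letter, CDK, CDC plus a digit, MCM plus a digit, E2F, AURK or PLK at its start, or PCNA, TOP2A, MKI67, RRM1, RRM2, BUB1 or TYMS. Of 15208 probes, 61 met the rule, each for a different gene. The symbol stood in the files for 51 of them and came from RefSeq, through the probe's accession or gene number, for 10. The name rule takes in more than the cell cycle: 28 of the 61 genes drive or carry it out (drivers below) and 33 do not, 4 of these being CDK inhibitors. A further 18 probes name such a gene only in words, PCNA, CCND1, CCND2 and MKI67 among them, and are given apart. CCNE1, TOP2A, MCM2 and BUB1 are not analysed here.

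The 3 groups held 4 cows each: day 15 of the estrous cycle (NP15, not pregnant), day 15 of gestation (P15) and day 18 of gestation (P18), with insemination on day 1. The labels give no treatment and no age. Tissue was removed between 10 and 30 min after exsanguination. NP15 and P15 differ in pregnancy at one day, and P18 and P15 differ in the day of pregnancy.

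Cyclins are proteins that bind and switch on CDKs. D-type cyclins with CDK4 and CDK6 and E-type cyclins with CDK2 carry a cell through G1 into S phase, where the MCM ring unwinds DNA; cyclin A and B with CDK1 then carry it through G2 and mitosis. CDK inhibitors hold these kinases back, while a second family of cyclins and CDKs works on RNA polymerase II and splicing rather than on division. In the ruminant corpus luteum the steroidogenic cells of the mature gland divide little, and endothelial cells are the ones best known for dividing.

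Levels below are log2 of the background-corrected signal minus the array's 75th percentile, so 0 is the level of a bright probe and a difference of 1 is a 2-fold change. They compare arrays for 1 probe, not genes with each other. That percentile lay at 2868 to 4183 on the NP15 arrays, 2649 to 3773 on those of P15 and 3000 to 3558 on those of P18. Fewer probes were well above background in P18 (67.5 to 72.6%) than in P15 (75.3 to 80.5%) and NP15 (79.6 to 85.6%), and the net signal of the negative control probes was higher in P18 (77.3 to 92.9) than in P15 (31.7 to 36.3) and NP15 (34.6 to 38.7). Of the 61 genes, 53 were well above background on all 12 arrays. The filter on dim probes passed 60 and left out E2F6, a repressor of E2F targets, which was dim on every array. NP15 and P15 shared slide 1 in different rows of it and P18 lay alone on slide 2, so slide row and pregnancy, and slide and day 18, cannot be told apart. NP15 replicate 4 stood apart: it was the highest of the 4 NP15 arrays for 46.4% of all genes. Of 8 markers of luteal cells, STAR and CYP11A1 were among the bright ones and were called in no comparison. STAR, which brings cholesterol into mitochondria, had means of 7.56, 7.61 and 7.26 in NP15, P15 and P18 (n = 4 each). CYP11A1, which starts steroid synthesis in mitochondria, had means of 6.41, 6.16 and 6.16. LHCGR lay below the 75th percentile, at -1.49, -1.4 and -1.9. HSD3B1 was lower in P15 than in NP15 (-1.47, limma adjusted p = 0.000872). Its probe lies at the edge of the array, where the median change of all genes was -0.72. SCARB1 (-1.14) and HSD3B1 (-0.7) were called lower in P18 than in NP15. Against P15, SCARB1 was called lower in P18 (-1.38) and HSD3B1 higher (0.77).

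The 4 core genes of S phase and mitosis spread widely between cows of one group, and none of them was called between groups. Of all genes, 1.01% were called in P15 vs NP15, 28.9% in P18 vs NP15 and 28.3% in P18 vs P15. The 4 core genes are CCNA2 (cyclin A2, of S and G2 phase), CCNB1 and CCNB2 (the mitotic B cyclins) and CDK1, the kinase they switch on, listed in the files under its older name. CCNA2 was at -4.29, -3.18, -4.73 and -3.88 on NP15 replicates 1 to 4, at -4.54, -4.42, -3.82 and -3.14 on those of P15 and at -5.12, -5.47, -4.94 and -3.0 on those of P18. One array of each group stood above its 3 others, and the groups overlapped.

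CDK1 was at -4.34, -3.11, -4.44 and -3.99 in NP15, at -4.69, -4.53, -3.89 and -2.65 in P15 and at -5.75, -4.18, -5.07 and -3.12 in P18. CCNB2 was at -2.81, -1.58, -3.03 and -2.16 in NP15, at -3.49, -3.05, -2.42 and -1.85 in P15 and at -3.49, -3.45, -3.12 and -1.53 in P18. The same arrays were high for both: NP15 replicate 2, P15 replicate 4 and P18 replicate 4. CCNB1 was at -3.87, -2.48, -4.16 and -5.87 in NP15, at -4.24, -3.89, -3.34 and -3.04 in P15 and at -4.86, -5.21, -4.20 and -2.42 in P18. It followed the other 3 genes except for the low value on NP15 replicate 4.

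**Figure D1:**
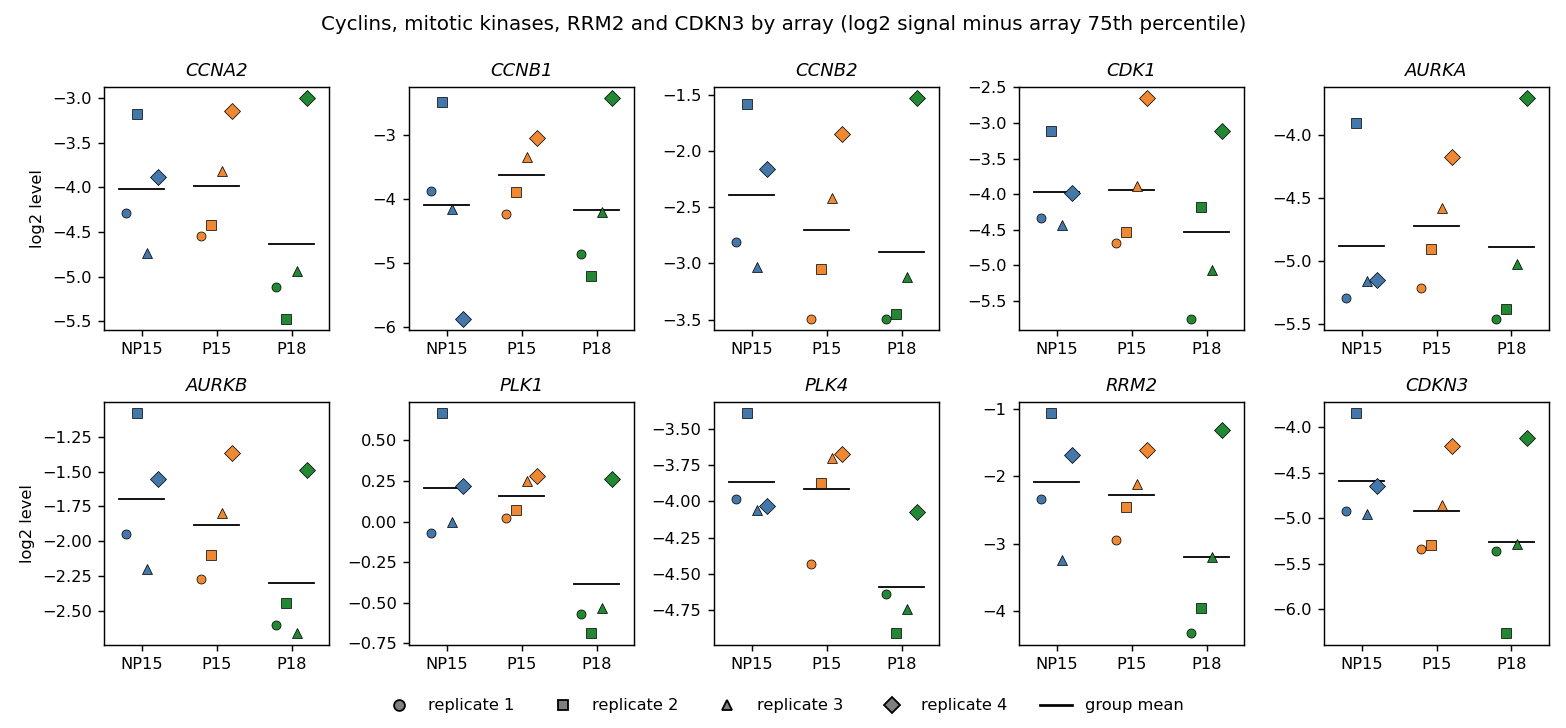
Level of 10 genes on each of the 12 arrays (y axis, log2 signal minus the array's 75th percentile, on its own scale for each gene), by group (x axis). Each point is 1 cow, the marker shape gives the replicate number, which does not link cows across groups, and the line is the group mean of 4. NP15 replicate 2, P15 replicate 4 and P18 replicate 4 are the highest of their group for CCNA2, CCNB1, CCNB2, CDK1, AURKA, AURKB, PLK1 and PLK4.

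Of the 5 aurora and polo kinases, 4 were highest on the same 3 arrays. AURKA, the aurora kinase of the spindle poles, was at -3.91 on NP15 replicate 2 and between -5.30 and -5.15 on the other NP15 arrays. PLK1, the polo kinase that drives entry into mitosis, was at -0.07, 0.67, -0.00 and 0.22 in NP15, at 0.02, 0.07, 0.25 and 0.28 in P15 and at -0.57, -0.69, -0.53 and 0.26 in P18. AURKB, the aurora kinase of the chromosomal passenger complex, was at -1.95, -1.08, -2.20 and -1.55 in NP15, at -2.27, -2.10, -1.80 and -1.37 in P15 and at -2.60, -2.44, -2.66 and -1.49 in P18, again highest on the same 3 arrays. PLK4, which starts the copying of the centriole, was also highest there. PLK3, a polo kinase better known from stress responses, was not: it was at 0.62 on NP15 replicate 4, 0.58 on P15 replicate 4 and 0.70 on P18 replicate 2, and between -1.10 and -0.43 on the other 9 arrays. A second PLK3 probe, named in words and sharing no run over 5 bases with the first, was highest on those 3 arrays too, at -3.48, -3.47 and -3.56.

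Over these 9 genes (the 4 core genes and the 5 aurora and polo kinases), NP15 replicate 2 was the highest NP15 array for 8, P15 replicate 4 the highest P15 array for 9 and P18 replicate 4 the highest P18 array for 8. Over all genes those arrays were highest for 18.1%, 23.8% and 26.7%. P15 replicate 1 was the lowest P15 array for 9 of the 9, against 19.7% of all genes. The median distance of the 9 genes from their group mean was 0.81, 0.59 and 1.18 on the 3 high arrays and -0.51 on P15 replicate 1. The 4 core genes' probes shared no run longer than 7 bases. The 3 arrays were picked from these values, so the counts describe them and are no test.

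The order of the arrays was also read in genes that the name rule does not take in. Of a list of 30 mitosis genes outside the rule, 13 were tested, and 9 of them were highest on NP15 replicate 2, 10 on P15 replicate 4 and 11 on P18 replicate 4. KIF20A, a kinesin of cytokinesis, was at -3.50, -2.14, -3.71 and -2.75 in NP15, at -3.16, -3.41, -2.90 and -2.38 in P15 and at -5.21, -5.22, -4.97 and -3.61 in P18. Of 36 genes of replication, 19 were tested, and 10, 7 and 15 of them were highest on those 3 arrays. Of the 18 drivers other than the 9 genes of mitosis, 6, 5 and 11 were highest there (33.3%, 27.8% and 61.1%), and the 33 genes that are not drivers were highest there in 5, 7 and 11 cases (15.2%, 21.2% and 33.3%).

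Markers of immune cells moved with 2 of these 3 arrays. The summed level of 7 T and natural killer cell genes was 1.08 on P15 replicate 4, against -1.58 to -0.00 on the other P15 arrays, and 1.83 on P18 replicate 4, against -1.41 to -0.36 on the other P18 arrays. The summed level of 5 macrophage and myeloid genes was 1.25 and 1.78 on them, against -0.01 to 0.58 and 0.57 to 1.01. On NP15 replicate 2 both lists were the lowest of the 4 NP15 arrays, at -1.03 and 0.22, against -0.40 to 0.15 and 0.36 to 0.85. These are the genes that passed the filter on dim probes, of 8 listed for each cell type; CD3D and CD3G were well above background on 1 P18 array each. Summed over 8 endothelial markers, P15 replicate 4 was the highest of its group (3.46), while NP15 replicate 2 (2.76) and P18 replicate 4 (2.77) were the lowest of theirs. The part of these cell types in the mitotic values was not tested, and in whole tissue fewer cells of a type and less RNA per cell cannot be told apart.

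The SD within groups, pooled over the 3 groups, was 1.12 for CCNB1, 0.92 for CDK1, 0.83 for CCNA2 and 0.77 for CCNB2. The median gene of all 12321 tested was at 0.27, with quartiles of 0.18 and 0.47, so 91.9 to 97.4% of all genes varied less than these 4. RRM2, the subunit of ribonucleotide reductase that is made in S phase, was at 1.00. At the other end CDK4, the kinase of D-type cyclins, was at 0.09. The median of the 27 drivers was 0.45 and that of the 33 other genes 0.21.

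**Figure D2:**
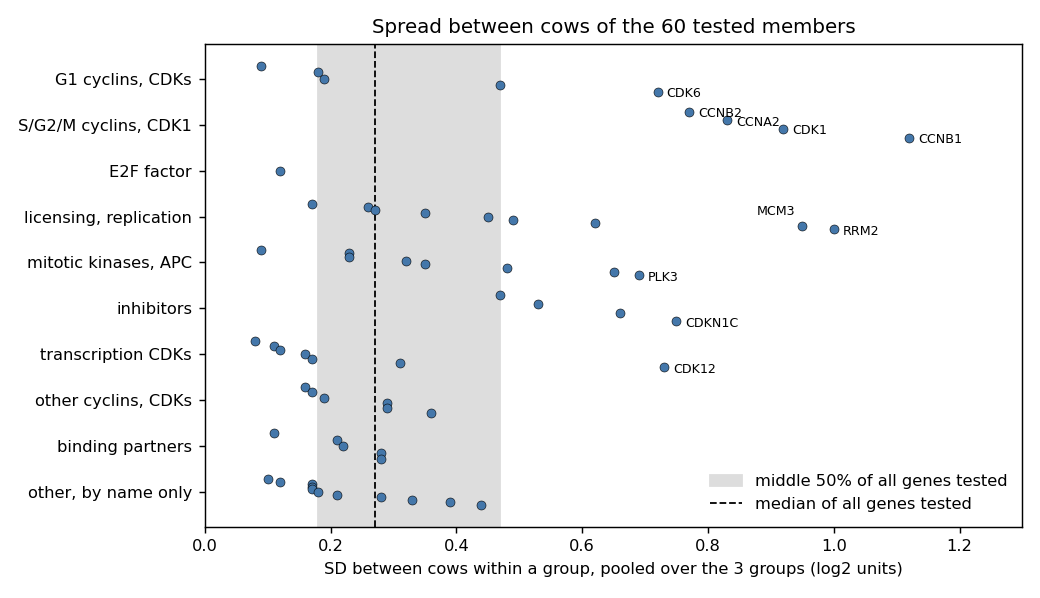
SD between the 4 cows of a group, pooled over the 3 groups (x axis, log2 units), of the 60 tested genes by role (y axis). Each point is 1 gene, the dashed line is the median of all genes tested (0.27) and the grey band their quartiles (0.18 to 0.47). The 3 cyclins and CDK1 of S phase and mitosis lie at 0.77 to 1.12 and most transcription kinases below the median.

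Pregnancy at day 15 was the first comparison. limma called 0 of the 60 genes between P15 and NP15 at an adjusted p under 0.05, where 1.01% of all genes were called (none of them without the outer rows of the array), and 2 genes had an unadjusted p under 0.05. The log2 changes ran from -0.41 to 0.66, with a median of -0.05 against -0.06 for all genes. The 2 genes were CDC7, the kinase that fires replication origins (0.56, SE 0.18, limma adjusted p = 0.315), and CDC123, a factor for assembly of the translation initiation complex eIF2 (-0.36, limma adjusted p = 0.524). They lie in rows 1 and 189 of the array, close to its 2 edges, where the median changes of all genes were 0.48 and -0.31. With changes taken relative to nearby rows (the local position adjustment) they were 0.14 and 0.08. CDC7 was at -4.14, -4.76, -4.46 and -4.13 in NP15 and at -3.58, -3.98, -4.10 and -3.61 in P15, and these did not overlap.

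This does not show that the division genes are alike on day 15. For CCNA2 the 95% interval of the log2 difference between P15 and NP15 was -1.13 to 1.21 and for CDK1 -1.26 to 1.32, so a 2-fold change either way lay within it. For CDK4 the interval was -0.27 to 0.14 and for CDK2, the kinase of S phase entry, -0.44 to 0.16. Precision was thus lower for CCNA2 and CDK1 than for CDK4 and CDK2.

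Day 18 of pregnancy was compared with both day 15 groups. The 2 comparisons share the 4 P18 arrays and are not independent. Against NP15, limma called 10 of the 60 genes, 2 higher and 8 lower, which is 16.7% where 28.9% of all genes were called (10.4% higher and 18.6% lower). Against P15 it called 12, 5 higher and 7 lower, which is 20% where 28.3% of all genes were called (12.8% higher and 15.5% lower). With each array centred on its median, which moved the median change of all genes from -0.06 to 0.11 and from -0.03 to 0.13, the splits were 8 higher and 6 lower, and 7 higher and 6 lower. With normexp background correction they were 5 and 5, and 6 and 3, with the local position adjustment 6 and 6, and 4 and 6, and with quantile normalization 4 and 8, and 5 and 7. The share of genes called was thus below that of all genes, and the balance of rises and falls depended on the scaling.

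**Figure D3:**
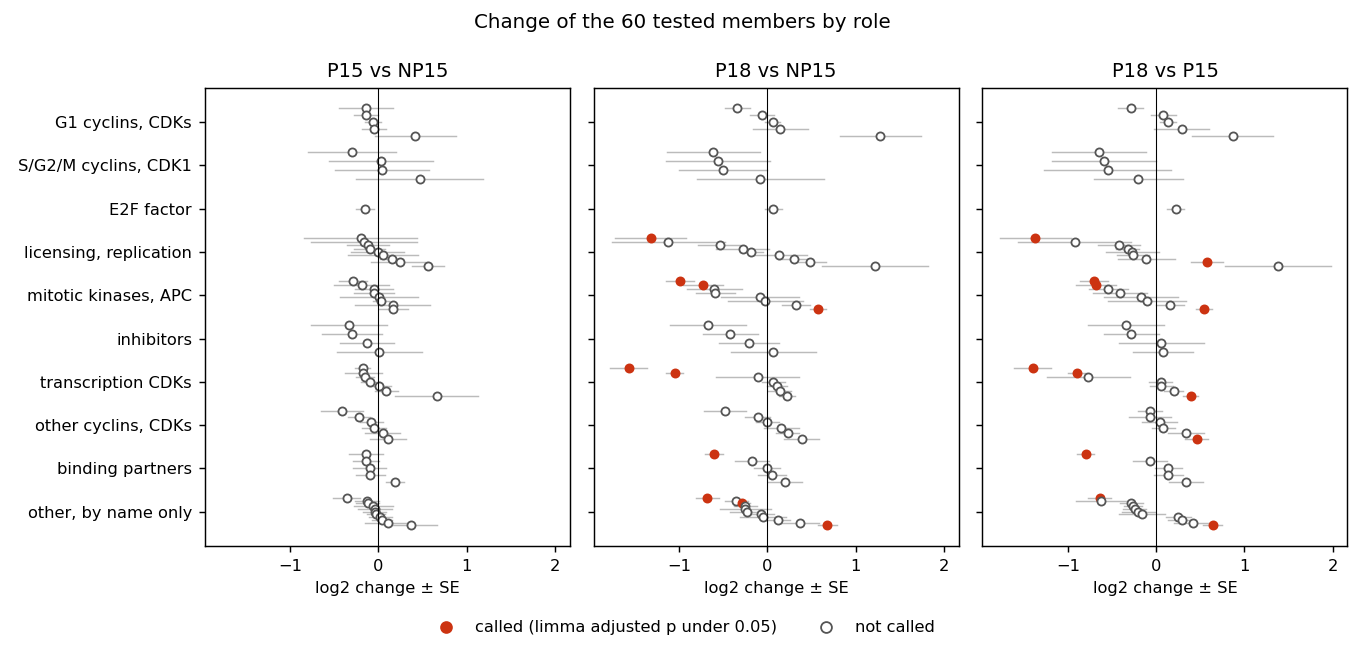
Log2 change of the 60 tested genes (x axis, point ± SE from limma) by role (y axis) in P15 vs NP15, P18 vs NP15 and P18 vs P15. Filled points are called at a limma adjusted p under 0.05. None is filled on the left, 10 in the middle and 12 on the right; none of the core S phase and mitosis genes or of the inhibitors is filled.

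In G1, none of the 5 tested members was called at day 18, where 28.9% of all genes were called against NP15 and 28.3% against P15. CCND3, cyclin D3, was at 3.44, 4.04, 3.75 and 3.98 in NP15, at 3.79, 3.77, 3.79 and 3.65 in P15 and at 3.35, 3.58, 3.66 and 3.27 in P18. The difference between P18 and NP15 was -0.34 (SE 0.14, limma adjusted p = 0.0983), and the groups overlapped. It passed with quantile normalization (-0.46) and without NP15 replicate 1 (-0.46, limma adjusted p = 0.0263). That array held the lowest NP15 value of CCND3, so leaving it out is no test. CDK4 was at 0.31, 0.52, 0.28 and 0.55 in NP15, at 0.34, 0.41, 0.28 and 0.39 in P15 and at 0.43, 0.54, 0.49 and 0.46 in P18, the narrowest range of the G1 genes. CDK2 was at -1.05, -0.77, -1.11 and -0.59 in NP15, at -1.10, -1.24, -0.92 and -0.84 in P15 and at -0.98, -0.90, -1.05 and -0.85 in P18. The groups of CDK2 overlapped in all 3 comparisons. CCNE2, cyclin E2, lay between -3.86 and -2.17 on all arrays.

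CDK6, a partner of D cyclins like CDK4, was at -7.20, -7.86, -7.39 and -9.64 in NP15, at -7.35, -8.05, -7.25 and -7.78 in P15 and at -7.25, -6.85, -6.51 and -6.35 in P18. Only 3 NP15, 1 P15 and 0 P18 arrays were well above background, so these values have no order between groups. E2F3, an E2F factor that switches on S phase genes, lay between -1.24 and -0.73 and was not called. E2F8, a repressor of E2F targets named in words, was dim on all P18 arrays and not called.

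The 2 other D cyclins were named in words. CCND1, cyclin D1, was at -5.24, -5.19, -5.11 and -4.74 in NP15 and at -5.03, -5.36, -5.67 and -5.47 in P15. It was dim on all P18 arrays (-6.16, -6.06, -6.44 and -5.86) and was at least 1.69-fold lower there than in NP15 (limma adjusted p = 0.00112) and at least 1.36-fold lower than in P15 (0.00813). For such a bound the dim group was given, on each array, the lowest signal of any probe well above background, or the gene's own signal where that was higher. With normexp both calls were lost (-0.21 and -0.10). CCND2, cyclin D2, was at -4.19, -3.93, -4.13 and -2.92 in NP15, at -2.79, -3.88, -3.69 and -3.12 in P15 and at -4.16, -4.15, -4.83 and -4.27 in P18. It fell from P15 to P18 by 0.98 (SE 0.32, limma adjusted p = 0.0383), with the groups apart. That call was lost under 10 of 25 alternatives, among them leaving out NP15 replicate 2, P15 replicate 1 or 4 or any of the P18 arrays, with changes of -1.15 to -0.65 over all 25.

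Of the S phase and mitosis core, 0 of 4 were called in either comparison, where 28.9% and 28.3% of all genes were, with medians of -0.53 and -0.57. The difference of CCNA2 between P18 and NP15 was -0.61 (SE 0.53, limma adjusted p = 0.424), with an interval of -1.79 to 0.56. Without P18 replicate 4, the high array, the difference was -1.16 (limma adjusted p = 0.059), and CDK1 moved from -0.56 to -1.03 (0.19). That array was picked from these genes' own values, so leaving it out is no test. Over all 25 alternatives the difference ran from -1.16 to -0.19 for CCNA2 and from -1.03 to -0.15 for CDK1. CCNB1 was at -0.08 with all arrays, -0.67 without NP15 replicate 4 and -0.66 without P18 replicate 4. None of the 4 was called in any comparison under any alternative run.

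Calls of PLK1 and AURKB depended on the same array, which was picked from the values of these genes, so leaving it out is no test. PLK1 differed from NP15 to P18 by -0.59 (SE 0.22, limma adjusted p = 0.0654) and from P15 to P18 by -0.54 (0.0907). Without P18 replicate 4 these were -0.80 (limma adjusted p = 0.00808) and -0.75 (0.0117), both past the threshold. AURKB passed against NP15, not P15, without that array (-0.87, limma adjusted p = 0.0422). With it the difference from NP15 was -0.60 (0.177). Over all 25 alternatives the difference from NP15 ran from -0.80 to -0.41 for PLK1 and from -0.87 to -0.40 for AURKB. AURKA passed in no comparison under any alternative. PLK4 was at -3.98, -3.39, -4.06 and -4.03 in NP15, at -4.43, -3.87, -3.70 and -3.67 in P15 and at -4.64, -4.91, -4.74 and -4.07 in P18. It fell by 0.73 from NP15 (limma adjusted p = 0.0352) and by 0.68 from P15 (0.0487), where the groups overlapped. Those calls were lost under 9 and 15 of 25 alternatives, among them leaving out any of P18 replicates 1, 2 and 3, with changes of -0.90 to -0.38 and -0.85 to -0.36 over all of them.

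Subunits of the anaphase-promoting complex, the ligase that ends mitosis by marking cyclin B for destruction, moved apart. CDC27, also called APC3, was at -4.16, -3.97, -3.94 and -4.36 in NP15, at -4.25, -4.41, -4.35 and -4.56 in P15 and at -5.24, -5.45, -4.96 and -4.73 in P18. CDC26, a small subunit that stabilises the complex, was at 0.49, 0.41, 0.41 and 0.33 in NP15, at 0.40, 0.39, 0.41 and 0.57 in P15 and at 0.83, 0.97, 1.06 and 1.09 in P18. In both genes all 4 P18 arrays lay beyond all 8 others, on the low side for CDC27 and on the high side for CDC26. CDC27 fell by 0.99 from NP15 (SE 0.16, limma adjusted p = 0.00116) and by 0.70 from P15 (0.0083). CDC26 rose by 0.58 (SE 0.09, limma adjusted p = 0.00105) and by 0.54 (0.0016). With normexp the fall of CDC27 from P15 was -0.29 and lost its call. CDC23, another subunit, was not called in any comparison.

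Of the 9 replication genes tested, 1 was called against NP15 and 2 against P15 (11.1% and 22.2%, where 28.9% and 28.3% of all genes were called). CDC45, a part of the helicase that opens the replication fork, was at -6.02, -4.90, -5.51 and -5.87 in NP15 and at -5.42, -5.71, -5.26 and -5.72 in P15. On P18 arrays it was at -6.35, -7.11, -8.12 and -6.01, below the background limit on each, and at least 1.19-fold lower than in NP15 (limma adjusted p = 0.0308) and 1.23-fold lower than in P15 (0.0261). Those calls were lost under 7 and 5 of 24 alternatives, with normexp at -0.08 and -0.14. Both were lost without P18 replicate 2, the one against NP15 also without NP15 replicate 2 or 3 or P18 replicate 3, and the one against P15 also without P15 replicate 1 or 3. MCM7, a subunit of the MCM ring, was at 0.27, 1.02, 0.23 and 0.81 in NP15, at 0.22, 0.60, 0.54 and 0.56 in P15 and at 0.88, 1.01, 1.18 and 1.17 in P18. It rose from P15 by 0.58 (SE 0.18, limma adjusted p = 0.034), with the groups apart, but without any 1 of the P15 arrays or of P18 replicates 2, 3 and 4 the call was lost (0.49 to 0.74 over all 25 alternatives).

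The other subunits of the ring were not called. MCM5 was at -0.83, 0.07, -0.96 and -0.19 in NP15, at -0.86, -0.45, -0.42 and -0.22 in P15 and at -1.35, -0.93, -0.72 and -0.03 in P18. MCM6 was at -2.47, -2.13, -2.85 and -1.95 in NP15, at -2.72, -2.40, -2.32 and -2.46 in P15 and at -2.74, -3.20, -3.27 and -2.35 in P18. The difference of MCM6 between P18 and NP15 was -0.54 (limma adjusted p = 0.111), and it passed without P18 replicate 4 (-0.72, 0.0374) or NP15 replicate 3 (-0.71). These arrays held the highest P18 and the lowest NP15 value of MCM6, so leaving them out is no test. MCM4, named in words, was at -1.57, 0.11, -1.18 and -0.30 in NP15, at -1.02, -1.13, -0.69 and -1.01 in P15 and at -1.38, -1.04, -1.11 and -0.40 in P18. MCM5 and MCM4 were highest on NP15 replicate 2 and P18 replicate 4, as the mitotic genes were. MCM3 was at -8.58, -7.96, -7.49 and -6.68 in NP15, at -8.17, -6.08, -7.71 and -9.39 in P15 and at -6.77, -6.84, -6.04 and -6.19 in P18. With 3 NP15, 1 P15 and 0 P18 arrays well above background it has no order between groups.

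RRM2 was at -2.33, -1.06, -3.24 and -1.68 in NP15, at -2.94, -2.45, -2.12 and -1.61 in P15 and at -4.33, -3.95, -3.20 and -1.32 in P18. It differed by -1.12 from NP15 (SE 0.64, limma adjusted p = 0.214) and by -0.92 from P15 (0.314). Without P18 replicate 4, the array picked as high, the differences were -1.75 and -1.55, and both passed (limma adjusted p = 0.0279 and 0.0456). RRM2 was itself highest of P18 on that array, so leaving it out is no test. Over all 25 alternatives the differences ran from -1.75 to -0.75 and from -1.55 to -0.54. RRM1, the subunit of the same enzyme that is present through the cycle, lay between 0.51 and 1.11 on all 12 arrays. TYMS, thymidylate synthase, was at -0.07 on NP15 replicate 4 and between 1.17 and 1.65 on the other 11.

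PCNA and MKI67, the proteins most used to count dividing cells in tissue sections, were named in words and not called. PCNA, the sliding clamp of DNA polymerase, was at 0.55, 0.78, 0.65 and 1.01 in NP15, at 0.68, 0.58, 0.62 and 0.97 in P15 and at 0.62, 0.91, 0.69 and 0.90 in P18. MKI67, which codes for the Ki-67 antigen, was at -5.98, -5.40, -6.14 and -5.76 in NP15, at -6.51, -6.70, -5.73 and -5.43 in P15 and at -6.31, -6.51, -5.75 and -5.33 in P18, with 2 of the P18 arrays well above background. MKI67 was highest on NP15 replicate 2, P15 replicate 4 and P18 replicate 4. The intervals of the P18 minus NP15 difference were -0.26 to 0.33 for PCNA and -0.88 to 0.56 for MKI67.

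None of the 4 inhibitors was called in P15 vs NP15, P18 vs NP15 or P18 vs P15, where 1.01%, 28.9% and 28.3% of all genes were called. CDKN1C (p57), an imprinted inhibitor of G1 kinases, was at 1.77, 2.64, 3.49 and 3.44 in NP15, at 4.06, 2.04, 3.02 and 2.26 in P15 and at 3.33, 3.16, 2.29 and 2.85 in P18. CDKN2B (p15), which blocks CDK4 and CDK6, was at -2.93, -4.62, -3.95 and -2.74 in NP15, at -3.73, -3.91, -3.98 and -3.80 in P15 and at -3.91, -3.74, -3.94 and -3.50 in P18. The NP15 cows spread over more than the whole range of the pregnant cows for CDKN2B, and the groups overlapped for both genes.

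CDKN2D (p19), of the same family as CDKN2B, was at -1.07, -1.15, -0.79 and -2.21 in NP15, at -1.80, -1.56, -1.01 and -1.38 in P15 and at -1.28, -2.27, -1.72 and -1.63 in P18. Without NP15 replicate 4 its difference from NP15 to P18 moved from -0.42 to -0.72 and passed (limma adjusted p = 0.0434). That array held the lowest NP15 value of CDKN2D, so leaving it out is no test. CDKN3, a phosphatase that strips the activating phosphate from CDKs, was at -4.92, -3.84, -4.95 and -4.65 in NP15, at -5.34, -5.29, -4.85 and -4.21 in P15 and at -5.36, -6.27, -5.28 and -4.12 in P18. It was highest on the same 3 arrays as the cyclins and kinases of mitosis. The pooled SDs of the 4 inhibitors were 0.47 to 0.75, and the intervals of P18 minus NP15 reached from -0.99 to 1.13 for CDKN1C and from -1.61 to 0.27 for CDKN3.

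Of the 7 transcription cyclins and CDKs, 2 fell from NP15, and from P15 the same 2 fell and 1 rose (28.6% and 42.9% called, where 28.9% and 28.3% of all genes were). CDK11B, a kinase of splicing and transcription listed in the files as CDK11, was at -1.79, -1.66, -1.68 and -1.59 in NP15, at -1.78, -1.75, -1.89 and -1.91 in P15 and at -2.92, -2.62, -2.79 and -2.59 in P18. All 4 P18 arrays lay below all 8 others. It fell by 1.05 from NP15, 2.07-fold (SE 0.10, limma adjusted p = 5.9e-05), and by 0.90 from P15, 1.87-fold (0.000159), and no alternative ended either call. CCNT1, the cyclin T1 of the elongation factor P-TEFb, was at -6.30, -6.31, -5.93 and -6.01 in NP15, at -6.75, -6.40, -6.05 and -6.02 in P15 and at -7.79, -7.27, -8.12 and -7.65 in P18. It was dim on all P18 arrays, so no fold is given, and with normexp its calls (limma adjusted p = 0.000366 and 0.000731) were lost at -0.10 and -0.16.

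Of the genes that fell against both groups, 4 are shown with their 60-base probes, since each value of these genes is the signal of this single sequence (as the files list them; GC content 41.7 to 55%, against 25 to 55% over all 61):
CDK11B: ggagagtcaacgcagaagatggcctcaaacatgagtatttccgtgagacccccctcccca
CDC27: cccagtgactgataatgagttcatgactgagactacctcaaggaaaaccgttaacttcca
CCNT1: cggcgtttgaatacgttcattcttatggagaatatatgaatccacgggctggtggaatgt
CDC45: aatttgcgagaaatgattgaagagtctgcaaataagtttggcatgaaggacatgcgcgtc

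CDK9, the kinase that cyclin T1 activates, lay between 3.11 and 3.61 on all 12 arrays and was not called. CDK7, the kinase of the general factor TFIIH, lay between -2.80 and -2.30 and was not called. CCNC, the cyclin of the Mediator kinase module, rose from P15 by 0.39 (SE 0.09, limma adjusted p = 0.0079) and was at 0.22 against NP15 (0.093). CDK12, which works with cyclin K on long genes, was at -6.98 on NP15 replicate 4 and between -5.37 and -4.30 on the other 11 arrays. With all arrays P18 differed from NP15 by -0.11 (limma adjusted p = 0.881) and from P15 by -0.77 (0.252), neither called. Without NP15 replicate 4 these were -0.74 (limma adjusted p = 0.000929) and -0.77 (0.000402). That array was singled out by CDK12's own value, so leaving it out is no test. CCNL2, a splicing cyclin that binds CDK11 kinases, was named in words and fell by 0.87 from NP15 (SE 0.12, limma adjusted p = 0.000458) and by 0.83 from P15 (0.000659), with all P18 arrays (-0.94 to -0.62) below all others (-0.11 to 0.31).

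**Figure D4:**
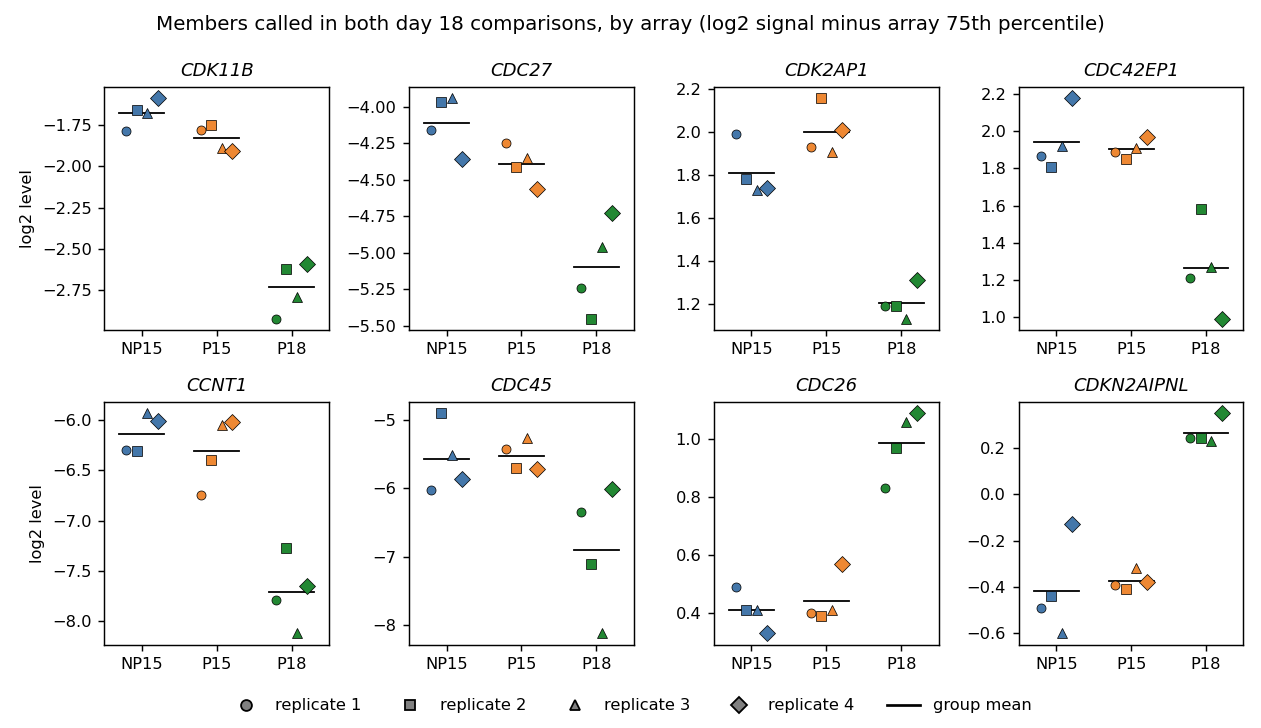
Level of 8 genes called in both day 18 comparisons on each of the 12 arrays (y axis, log2 signal minus the array's 75th percentile, on its own scale for each gene), by group (x axis). Each point is 1 cow, the marker shape gives the replicate number, and the line is the group mean of 4. P18 lies apart from both other groups except for CDC45, which overlaps with NP15; CCNT1 and CDC45 were dim on all P18 arrays.

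The remaining called genes do not drive the cycle, and all but CDK14 lie among binding partners or genes that the name rule takes in for their symbol alone. CDK2AP1, a CDK2-binding protein that is also a subunit of the NuRD chromatin complex, was at 1.99, 1.78, 1.73 and 1.74 in NP15, at 1.93, 2.16, 1.91 and 2.01 in P15 and at 1.19, 1.19, 1.13 and 1.31 in P18. It fell by 0.60 (SE 0.10, limma adjusted p = 0.00123) and by 0.80 (0.000268), with no overlap and no call lost. Its relative CDK2AP2 lay between 0.49 and 1.25 on all arrays and was not called. CDC42EP1, an effector of the GTPase CDC42 that shapes actin, was at 1.87, 1.81, 1.92 and 2.18 in NP15, at 1.89, 1.85, 1.91 and 1.97 in P15 and at 1.21, 1.58, 1.27 and 0.99 in P18. It fell by 0.68 (SE 0.13, limma adjusted p = 0.00285) and by 0.64 (0.00423).

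CDKN2AIPNL, which carries CDKN in its symbol but is no CDK inhibitor, was at -0.49, -0.44, -0.60 and -0.13 in NP15, at -0.39, -0.41, -0.32 and -0.38 in P15 and at 0.24, 0.24, 0.23 and 0.35 in P18. It rose by 0.68 (SE 0.11, limma adjusted p = 0.000954) and by 0.64 (0.00144), with all P18 arrays above all others. CDC5L, a splicing factor, fell by 0.29 from NP15 (limma adjusted p = 0.0463), a call lost under 15 of 24 alternatives. CDK14, a kinase activated by cyclin Y, rose by 0.46 from P15 (SE 0.13, limma adjusted p = 0.0188), a call lost without P15 replicate 2 (0.41) or P18 replicate 3 (0.39).

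Of the 16 tested genes named in words, 0 were called between P15 and NP15, 2 between P18 and NP15 (12.5%) and 4 between P18 and P15 (25%), where the shares of all genes were 1.01%, 28.9% and 28.3%. CDC42 itself, named in words, rose by 0.61 from P15 (SE 0.16, limma adjusted p = 0.0154); it lies in row 190, where the median change of all genes was 0.22, and the call was lost with the local position adjustment (0.34). The members not named, among them CCNG1, CDK5, CDK10, CDC37 and CDC40, were called in no comparison.

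Other genes of the pathway, outside the name rule, were taken from 3 lists of textbook genes. None was called between P15 and NP15, where 1.01% of all genes were. Against NP15, 3 of the 19 tested replication genes rose in P18 and 1 fell, where 10.4% of all genes rose and 18.6% fell. RPA3, a small subunit of the single-strand binding protein RPA, rose by 0.72 (SE 0.12, limma adjusted p = 0.00143), while RPA1, its large subunit, fell by 1.89 (SE 0.17, 3.92e-05). The clamp loader genes RFC1 and RFC5 rose by 0.58 and 0.62 (limma adjusted p = 0.00306 and 0.00249). The same 4 genes were called in the same directions against P15, which shares the P18 arrays, and no alternative ended a call. RPA1 was at -2.69, -2.79, -2.76 and -2.14 in NP15, at -2.75, -2.68, -2.70 and -2.64 in P15 and at -4.72, -4.27, -4.74 and -4.24 in P18, which left a wide gap between P18 and the other groups.

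Of the 13 tested mitosis genes, 1 rose and 4 fell in P18 against NP15, with a median of -0.52, where 10.4% of all genes rose and 18.6% fell. ESPL1, the protease separase, rose by 0.63 (limma adjusted p = 0.00417). KIF20A fell by 1.72 (SE 0.43, limma adjusted p = 0.0111). CENPF, a kinetochore protein (-1.42, limma adjusted p = 0.0381), and SMC4, a condensin subunit (-0.84, 0.007), also fell. BIRC5, survivin, was dim on all P18 arrays and was at least 1.63-fold lower there (limma adjusted p = 0.0194). KIF20A changed by -1.79 from P15 (SE 0.43, limma adjusted p = 0.00963), and no alternative ended either call. The calls of CENPF and BIRC5 against NP15 were lost under 9 and 4 of 24 alternatives, for both among them leaving out NP15 replicate 2 or P18 replicate 1 or 2 (-1.27 to -1.16 for CENPF), and for BIRC5 normexp (-0.39). Against P15, 2 of the 13 rose (ESPL1 and CKS1B) and 3 fell (KIF20A, BIRC5 and SMC4), where 12.8% of all genes rose and 15.5% fell. Of these, the call of BIRC5 was lost under 6 of 24 alternatives (normexp, or without P15 replicate 3 or 4 or P18 replicate 1, 2 or 3). That of SMC4 (-0.69) was lost under 6 of 25 (quantile normalization, median centring, normexp, or without P15 replicate 4 or P18 replicate 1 or 2, -0.78 to -0.43 over all). That of CKS1B (0.48), a partner of CDKs, was lost under 3 of 24 (without P15 replicate 1 or 2 or P18 replicate 4).

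Some markers of cell types changed in the same comparisons, in both directions. Of 8 tested endothelial markers, CDH5 (-1.13), PECAM1 (-1.06) and VWF (-0.87) fell in P18 from NP15 (limma adjusted p = 0.000294, 0.000449 and 0.00941) and none rose, where 18.6% of all genes fell. The others were not called and lay between -0.31 (TIE1) and 0.13 (FLT1). A second FLT1 probe of similar brightness went the other way, with means of -4.52, -4.52 and -5.75 in NP15, P15 and P18. It was well above background on 2 P18 arrays. A second KDR probe had means of -2.84, -2.37 and -2.66. The summed level of the 8 overlapped, at 2.76 to 3.36 in NP15 and 2.77 to 3.04 in P18. Of 8 tested markers of fibroblasts, pericytes and smooth muscle, ACTA2 (-1.88), COL1A1 (-1.43), COL1A2 (-1.35) and COL3A1 (-0.90) fell (limma adjusted p = 0.00148, 0.00356, 0.00283 and 0.00613) and none rose. The others were not called and lay between -0.09 (DCN) and 0.20 (PDGFRA). A second, dimmer RGS5 probe had means of -1.79, -1.34 and -2.28 in NP15, P15 and P18. The same 7 markers fell from P15, where 15.5% of all genes fell. Of 7 T and natural killer cell genes, CD2 rose from NP15 (1.03, limma adjusted p = 0.0255). Of 2 red blood cell genes, ALAS2 rose from both groups (0.49, limma adjusted p = 0.0149, and 0.54, 0.0097). Among 5 myeloid genes, CD68 rose from P15 (0.99, limma adjusted p = 0.0392). Of all genes, 10.4% rose from NP15 and 12.8% from P15. MS4A1, a B cell gene, was called higher than in P15 but was dim on all P18 arrays. The part of these cell types in the counts of the pathway lists was not tested.

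Some of the cell type markers above changed between P18 and NP15, and their part in the next list was not tested either. Of the 10 tested genes of checkpoints and G1 control, 4 fell in P18 against NP15 and none rose, where 18.6% of all genes fell. Among them were ATR, the kinase that senses stalled replication (-0.59, SE 0.12, limma adjusted p = 0.00473), TFDP1, the partner of E2F factors (-0.57, SE 0.13, 0.00671), and MYC (-1.05, SE 0.35, 0.0428). ATR and TFDP1 also fell from P15. The call of MYC was lost under 11 of 25 alternatives, among them leaving out P18 replicate 3 (-0.90) or 4 (-0.94).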

How the data were processed

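Per the file headers the deposited scanner files come from Agilent Feature Extraction 9.5.1.1 (9.5 in the submitters' processing notes) and give each spot's intensity, not logged. The deposited value table, compared with them, is the log2 intensity less 1 constant per array (column medians -3.32 to -2.99). Here the log2 processed intensity was scaled to each array's 75th percentile over 15208 probes. Marked spots, at most 9 per array and 0 among the 61 probes, were left out. A probe was kept when well above background on 3 of 4 arrays of a group, and the brightest probe stood for a gene.

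Group means of 12 arrays were fitted with limma 3.58.1 in R 4.3.3 (lmFit, eBayes; two-sided, Benjamini-Hochberg over 12321 genes, threshold 0.05). The series gives 4 animals per group. Names came from the files and from RefSeq (ARS-UCD2.0), roles from textbook knowledge. The rule gave, array by array, genes called between P15 and NP15, the 8 largest called changes of each P18 comparison, all inhibitors, and CCNA2, CCNB1, CCND1, CCND2, CCND3, CDK1, CDK2, CDK4, CDK6, PCNA, MKI67 and MCM3 to MCM7. Other genes given with values were chosen after their values were seen. Members, lists and tests were chosen with earlier results of these data known. The fit was tested on simulated data. Alternatives were quantile normalization, median centring, normexp (offset 50), the value table, other filters and probe rules, position adjustment, array weights, blocks and leaving out each array. One gene of the pathway lists is not reported here.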

Additional observations from a re-analysis of the deposited data

Results flagged for a closer look

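In 135 tests of 1 array against the 3 others of its group, 12 values stood farther off than Dixon's 95% limit allows. Some of the genes tested were chosen after their values were seen. The count therefore cannot be set against the 1 in 20 that chance gives. On NP15 replicate 4, the array that stood apart, CDK12 was at -6.98 (others -4.64 to -4.38), SEPTIN7, listed in the files as CDC10, at -4.90 (-3.62 to -3.42), TYMS at -0.07 (1.44 to 1.65) and PLK3 at 0.62 (-0.80 to -0.60). E2F4 and CCNK, named in words and not among these tests, were also low there, at -3.71 (-0.54 to -0.44) and -1.84 (1.72 to 1.90).

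Without that array SEPTIN7 was lower in P18 by -0.60 against NP15 (limma adjusted p = 0.00802), a difference not called with it (-0.25). The array was singled out by SEPTIN7's own value among others, so leaving it out is no test.

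On NP15 replicate 2, AURKA was at -3.91 (others -5.30 to -5.15) and PLK4 at -3.39 (-4.06 to -3.98), and on P18 replicate 4, PLK1 was at 0.26 (-0.69 to -0.53), CDKN2AIPNL at 0.35 (0.23 to 0.24) and CDC123 at -1.08 (-1.37 to -1.32). On P15 replicate 4, CDC26 was at 0.57 (0.39 to 0.41) and CCND3 at 3.65 (3.77 to 3.79). On P15 replicate 1, MCM7 was at 0.22 (0.54 to 0.60).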

How the results depend on the processing

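The count of called genes of the 60 was 0 for P15 vs NP15 under every alternative run and with each array left out in turn. For P18 vs NP15 it was 10, with 8 to 14 under the other alternatives and 7 to 13 with 1 array left out; for P18 vs P15 it was 12, with 9 to 16 and 9 to 17. None moved by more than 1.5 times, and none of the named genes changed the direction of a call. Over the named genes, 4255 recomputed values kept their side of the threshold, 117 called ones lost it and 51 uncalled ones passed it. The 9 genes of mitosis gave 25 of 27 highest values on the 3 high arrays with quantile normalization, median centring, normexp, the position adjustment and the deposited value table alike, a check chosen after seeing the data.

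Over all genes, P15 vs NP15 gave 124 calls, against 71 with the replicate number as a block, 40 with the position adjustment, 74 with normexp, 58 on the 8 arrays compared, 222 with array weights, 62 to 78 when any of NP15 replicates 1 to 3 and P15 replicates 2 and 3 was left out, and 0 without the outer rows of the array. With no filter on dim probes the calls over all genes were 5375 (3566 with it) for P18 vs NP15 and 5302 (3489) for P18 vs P15.

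With the replicate number as a block the counts were 0, 9 and 10. The numbers, which also give the array's column on its slide, were not shown to pair cows: same-numbered NP15 and P15 arrays correlated at 0.119, 0.164, 0.0976 and 0.294 in their deviations from the group means, and NP15 replicate 1 correlated better with P15 replicate 2 (0.186).

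Signal limits the dim probes: with normexp, which adds an offset, changes of CCNT1, CDC45 and CCND1 shrank to between -0.21 and -0.08. With 4 arrays a group, the wide spread of the 4 core genes (CCNA2, CCNB1, CCNB2 and CDK1) leaves intervals of over 2 log2 units.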
